A study of Homo sapiens with 6 samples.

Results

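In OVCAR3 cells treated with an inhibitor of CDK12 and CDK13, 45 named loci had a normalised read count at least 4 times that of the solvent control. A locus was included when it carried a gene symbol, when its mean over the 3 THZ531 libraries was at least 100, and when the ratio (mean THZ531 + 1)/(mean DMSO + 1) was at least 4. Symbols of the ZNF, LINC and histone series were left out. The table holds 47577 loci, 26793 of them named, and 11528 of the named loci had a THZ531 mean of at least 100. Of these, 52 passed both thresholds (0.451%), and 7 of the 52 carried an excluded symbol, which left the 45 members. With the libraries scaled to the same total 33 loci met the rule, and 22 when scaled to RPL34. When 1 library was left out in turn, 7 of the 45 no longer met it in at least 1 case. For comparison, 105 of the 526 loci without a symbol at that level passed both thresholds (20%).

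OVCAR3 cells are an established line from a high-grade serous adenocarcinoma of the ovary. PolyA RNA was sequenced from 3 libraries of cells treated with the solvent DMSO and from 3 libraries of cells treated with 200 nM THZ531, a covalent inhibitor of CDK12 and CDK13, for 6 h in both cases. The titles and the treatment characteristic of the samples name THZ531, whereas their treatment protocol names the related compound THZ1 at that dose. The 2 groups share the cell line and the culture conditions, and no allele was changed. The labels call the samples replicates without saying that they came from separate cultures, so the p-values measure the spread between these libraries, which may be technical.

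CDK12 and CDK13 are cyclin K-dependent kinases that phosphorylate the C-terminal domain of RNA polymerase II during elongation. They are known for sustaining transcription through long genes and for limiting the use of polyadenylation sites that lie within introns. PolyA selection keeps a transcript when it ends in a poly(A) tail, whose position is commonly set by the hexamer AATAAA or ATTAAA shortly before the cleavage site.

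The ratio chose the members, so every member value below is a description without a test. The values are reads scaled by 1 size factor for each library and are not corrected for transcript length, so they compare libraries at 1 locus and not 1 locus with another. In all 45 members the lowest THZ531 library was above the highest DMSO library, an arrangement found at 36% of the 17568 expressed loci and largely fixed here by the rule. The ratio ran from 4.03 to 31.4 with a median of 5.67, and 19 members had a ratio of at least 6. The DMSO mean was under 50 in 25 members and over 500 in 6.

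The members fell into 4 classes. There were 18 protein-coding loci outside any other named locus, 7 protein-coding loci wholly inside another named locus, 17 noncoding loci or pseudogenes (9 of them inside another named locus), and 3 small RNAs. The nested coding loci had the largest median ratio among the 3 larger classes (6.92), against 5.54 for the noncoding loci and pseudogenes and 4.76 for the other coding loci.

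**Figure D1:**
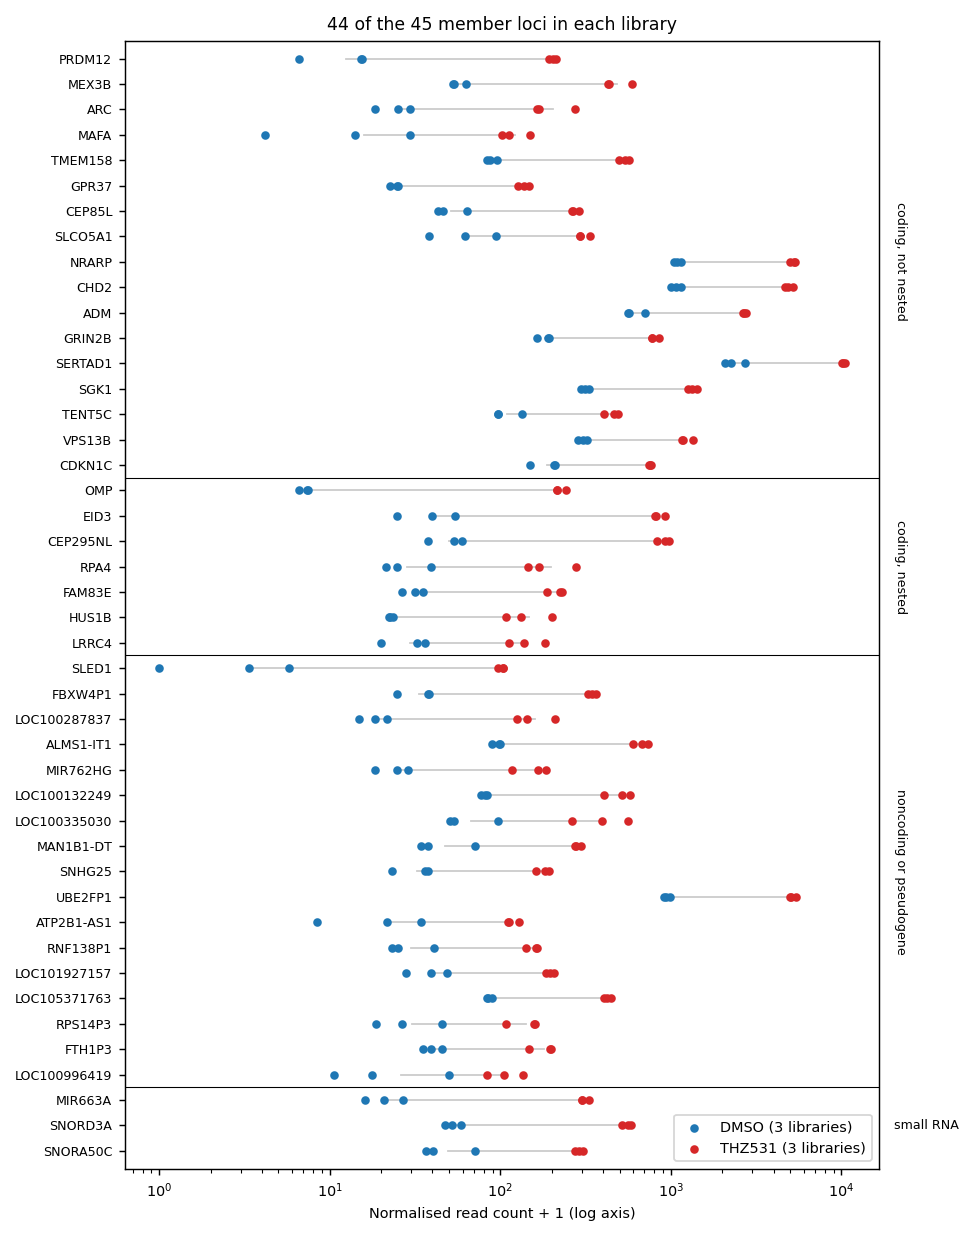
Normalised read count + 1 (log axis) of 44 of the 45 members, grouped by class and ordered by ratio within the class. Each blue point is 1 of 3 DMSO libraries, each red point 1 of 3 THZ531 libraries, and the grey line joins the group means. No red point of a locus lies to the left of a blue one, and the blue points start from counts under 50 on average at 25 of the loci.

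The 3′ ends of the members were read from hg38 first, because a polyA library reports on transcripts that end in a tail. A strand was available for 39 members, and 30 of them (76.9%) had AATAAA or ATTAAA in the last 60 bases of the locus, against 8832 of 11333 other named loci with a THZ531 mean of at least 100 (77.9%). The windows of 30 bases below are shown 5′ to 3′ on the strand of the locus for 7 members that lie inside an intron of another gene and for 3 coding members with high THZ531 means, with the hexamer in capitals.
SLED1 (chr4:184798300-184798329, minus strand): attggagaagggAATAAAttttagcaagta
EID3 (chr12:104305168-104305197, plus strand): tttaagactattAATAAAaacaagttttgg
FBXW4P1 (chr22:23264954-23264983, plus strand): catttttgtaaaAATAAAgcttgattgttc
ALMS1-IT1 (chr2:73459437-73459466, plus strand): gaataatttattAATAAAatagctttaatt
HUS1B (chr6:655941-655970, minus strand): tgcaaaatttatATTAAAgcattggtaaaa
UBE2FP1 (chr3:37141545-37141574, minus strand): caatgaaatcaaatgcgaAATAAAtgtttg
RNF138P1 (chr5:55528672-55528701, minus strand): taaacttggtttAATAAAaatgttaatttt
SERTAD1 (chr19:40421596-40421625, minus strand): cccatttttaaaAATAAAattcactcctgg
NRARP (chr9:137299635-137299664, minus strand): tgatctttttatATTAAAaaaaagtttctt
CHD2 (chr15:93027955-93027984, plus strand): tgattcttgtatATTAAAaagtgttactga
Between the hexamer and the end of the locus there were 6 to 28 bases in the 7 intronic windows and 16 to 30 in the coding ones. Of the intronic members with a strand, OMP, CEP295NL and RPA4 had no hexamer in the last 60 bases. The windows of UBE2FP1 and RNF138P1 lie at the ends of wide loci of the file, outside the GENCODE models of these pseudogenes. A match describes the letters of the window and does not show that the site was used.

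The nested coding members included the 3 coding loci with the largest ratios. OMP, the olfactory marker protein of mature olfactory sensory neurons, is a single exon at chr11:77102840-77103331 inside intron 3 of CAPN5, a calpain gene. Its values were 6.35, 6.50 and 5.59 in DMSO and 243, 214 and 214 in THZ531 (replicates 1, 2 and 3 in this order here and below). The 3 DMSO libraries held 7 or 8 reads each, and the ratio was 31.4.

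EID3 encodes an inhibitor of EP300-dependent differentiation and lies at chr12:104303739-104305205 in intron 4 of TXNRD1, the cytosolic thioredoxin reductase. Its values were 53.2, 39.0 and 23.9 in DMSO and 917, 809 and 813 in THZ531, a ratio of 21.3. The DMSO libraries differed among themselves by more than a factor of 2, and the THZ531 libraries lay close together. CEP295NL, named for its likeness to the N-terminal part of the centriolar protein CEP295, lies at chr17:78890579-78903201 in intron 1 of TIMP2, an inhibitor of metalloproteinases. It had 36.5, 58.5 and 52.7 in DMSO and 924, 972 and 828 in THZ531, and its ratio was 18.1.

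RPA4, a paralog of the single-strand DNA binding subunit RPA2, is at chrX:96883907-96885451 in intron 5 of the formin gene DIAPH2. Its values were 23.8, 20.4 and 38.3 in DMSO and 277, 167 and 144 in THZ531, with THZ531 replicate 1 well above the other THZ531 libraries. FAM83E (chr19:48599961-48615076) had 25.4, 30.6 and 34.3 in DMSO and 228, 224 and 188 in THZ531 and a ratio of 6.89. In HUS1B, a paralog of the checkpoint clamp subunit HUS1 inside EXOC2, the mean went from 21.7 to 146 (ratio 6.47). In LRRC4, a synaptic adhesion protein, it went from 28.6 to 143 (ratio 4.86).

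The coding members outside other loci included transcription factors. PRDM12, which specifies pain-sensing neurons, had the largest ratio of the class, 16.4, with 14.3, 5.57 and 14.4 in DMSO and 193, 202 and 212 in THZ531. MAFA, a large MAF factor that drives the insulin gene, had 3.18, 13.0 and 28.7 in DMSO and 149, 111 and 101 in THZ531. Its DMSO libraries ran from 4 to 36 reads, and the ratio of 7.61 became 13.4 without DMSO replicate 3.

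Regulators of the cell cycle and of signalling formed a further group. SERTAD1, a CDK4-binding protein and E2F coactivator, had the highest counts of all members, 2724, 2248 and 2075 in DMSO and 10463, 10186 and 10021 in THZ531 (ratio 4.35). CDKN1C, which encodes the CDK inhibitor p57, went from 187 to 754 on average, a ratio of 4.03. NRARP, a Notch target that dampens Notch signalling, had 1078, 1048 and 1146 in DMSO and 5239, 5322 and 4993 in THZ531. The groups were far apart relative to the spread within each, and the ratio was 4.75. SGK1, a kinase induced by serum and glucocorticoids, went from 312 to 1336 (ratio 4.27), and TMEM158, a membrane protein induced by Ras signalling, had 82.6, 94.6 and 86.2 in DMSO and 537, 565 and 493 in THZ531 and a ratio of 6.00.

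RNA regulators were members too. MEX3B, an RNA-binding protein with KH domains, had 61.9, 52.0 and 52.7 in DMSO and 592, 424 and 435 in THZ531, with the highest value in THZ531 replicate 1 and a ratio of 8.57. TENT5C, a poly(A) polymerase that lengthens mRNA tails, went from 108 to 451 (ratio 4.14). CHD2, a chromatin remodeler, was the longest of the 6 members with a DMSO mean over 500 and had 1065, 1145 and 1002 in DMSO and 5218, 4838 and 4670.2 in THZ531, a ratio of 4.58. Its gene model has 39 exons, and those of CEP85L and VPS13B have 13 and 62.

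ADM, the precursor of the vasodilator peptide adrenomedullin, had 562, 699.6 and 567 in DMSO and 2693, 2651 and 2747 in THZ531 (ratio 4.42). ARC, an immediate early gene of neurons, had 17.5, 24.1 and 28.7 in DMSO and 164, 168 and 274 in THZ531, with THZ531 replicate 3 above the other THZ531 libraries. The ratio of ARC was 8.31. The other coding members were GPR37, an orphan receptor (23.2 to 136, ratio 5.67), the centrosomal gene CEP85L (50.2 to 272, ratio 5.33), the transporter gene SLCO5A1 (63.5 to 307, ratio 4.77, or 3.96 without DMSO replicate 2), GRIN2B, a subunit of the NMDA receptor (181 to 798, ratio 4.39), and VPS13B, a lipid transfer protein of the Golgi (303 to 1227, ratio 4.04).

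Of the noncoding loci and pseudogenes, SLED1, a pseudogene of the eosinophil gene PRG3 at chr4:184798296-184799046 in ACSL1, had 2.38, 0 and 4.79 in DMSO and 95.7, 102 and 102 in THZ531. DMSO replicate 2 held no read there, the ratio of 29.8 became 46.2 without DMSO replicate 3, and SLED1 was also the member nearest to the level threshold. FBXW4P1, a pseudogene in the BCR gene, had 23.8, 37.1 and 36.7 in DMSO and 341, 365 and 325 in THZ531 and a ratio of 10.3. ALMS1-IT1, annotated as an intronic transcript of ALMS1, had 88.9, 97.4 and 98.1 in DMSO and 675, 737 and 602 in THZ531. Both groups were tight, and the ratio was 7.01.

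UBE2FP1 is a pseudogene of the NEDD8-conjugating enzyme gene UBE2F, at chr3:37141545-37144182 in LRRFIP2. It had the highest counts of this class, 938, 904 and 992 in DMSO and 5083, 5439 and 4997 in THZ531, with a ratio of 5.47. Its locus in the file is 5.9 times as long as the GENCODE pseudogene, so this value can include reads from the surrounding intron. RNF138P1 in PLPP1 was 10.8 times as long as its GENCODE model, and its ratio was 5.23.

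LOC100287837 had 17.5, 13.9 and 20.7 in DMSO and 209, 125 and 142 in THZ531 (ratio 8.69), and MIR762HG had 17.5, 27.8 and 23.9 in DMSO and 165, 116 and 185 in THZ531 (ratio 6.50). In both, the THZ531 libraries differed by more than a factor of 1.5. LOC100132249 had 82.6, 80.7 and 75.8 in DMSO and 574, 514 and 405 in THZ531, and LOC105371763 had 83.4, 82.6 and 88.6 in DMSO and 422, 404 and 446 in THZ531. LOC100335030, a pseudogene of FGFR1OP2 in SPATS2, had 50, 96.5 and 52.7 in DMSO and 563, 391 and 263 in THZ531, the widest spread among the THZ531 libraries of this group. The ratios of these last 3 loci were 6.18, 4.95 and 6.03.

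The remaining noncoding members had ratios between 4.15 and 5.93. They were the divergent transcript MAN1B1-DT (5.93), the snoRNA host gene SNHG25 (5.54), ATP2B1-AS1 (5.45), RNF138P1, LOC101927157 (5.06), the ribosomal protein pseudogene RPS14P3 (4.71, or 3.95 without DMSO replicate 3), the ferritin pseudogene FTH1P3 (4.51) and LOC100996419 (4.15). LOC100996419 had 49.2, 16.7 and 9.57 in DMSO and 105, 135 and 83.1 in THZ531, and its ratio was 7.68 without DMSO replicate 1 and 3.20 without DMSO replicate 3. Pseudogenes share sequence with their parent genes, and reads could have been divided between the copies, which makes the values of UBE2FP1, RNF138P1, RPS14P3, FTH1P3, FBXW4P1, SLED1 and LOC100335030 uncertain.

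The small RNAs were SNORD3A, SNORA50C and MIR663A. Their counts come from a polyA library and are not a measure of the mature small RNAs. SNORD3A encodes the U3 snoRNA, which guides cleavage of the ribosomal RNA precursor, and had 50.8, 57.5 and 46.3 in DMSO and 581, 560.4 and 519 in THZ531 (ratio 10.5). SNORA50C, of the H/ACA class that guides pseudouridylation, had 35.7, 69.6 and 39.1 in DMSO and 275, 288 and 304 in THZ531. It lies within the GENCODE span of SNHG25, also a member, so the 2 loci lie in a single annotated transcription unit. SNORD104, inside the SNHG25 locus of the file, had 109 ± 23.6 (SD, n = 3) in DMSO and 131 ± 13.4 in THZ531 (log2 fold change 0.28, SE 0.20, limma adjusted p = 0.227).

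MIR663A had 19.8, 26.0 and 15.2 in DMSO and 301, 331 and 301 in THZ531, a ratio of 14.6. RefSeq gives the mature microRNA below on chromosome 20 (chr20:26208243-26208264, minus strand), with the seed (bases 2 to 8) in capitals.
hsa-miR-663a: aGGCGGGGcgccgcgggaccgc
The locus of the file is on chromosome 21 (chr21:8252232-8252324), and it holds this sequence too, so copies of MIR663A cannot be told apart by these counts. A ribosomal RNA locus 32929 bases away had 43677 ± 4664 in DMSO and 82785 ± 14964 in THZ531 (SD, n = 3). The counts at MIR663A lie in a polyA library and are not a measure of mature microRNA.

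The members just inside the ratio threshold were TENT5C (4.14), VPS13B (4.04) and CDKN1C (4.03). Just outside were DEPDC7 (3.98), the histone gene H2BC4 (3.96), which its symbol would have excluded, and IRF7 (3.92). On the level threshold, SLED1 (THZ531 mean 100.1), LOC100996419 (107.6) and ATP2B1-AS1 (116.2) were just inside, and EML2-AS1 (95.6), LAG3 (94.0) and RNVU1-7 (88.8) just outside.

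The structure of the loci was not used by the rule. A GENCODE gene model was matched for 37 members, and 17 of them (45.9%) had a single exon. The share was 2.86% (324 of 11310) for the other named loci with a THZ531 mean of at least 100. Among members it was 4 of 18 for coding loci outside other loci (22.2%) and 4 of 7 for nested coding loci. It was 7 of 10 for noncoding loci or pseudogenes and 2 of 2 for small RNAs. The other named loci were not split by class. Members had a median of 2 exons and a median locus length of 2998 bases, against 9 exons and 30587 bases for these other loci. The 18 coding members outside other loci had medians of 3.5 exons and 11420.5 bases. In all, 16 of 45 members (35.6%) lay wholly inside another named locus, against 597 of 11483 (5.2%). Of the nested loci with a strand, 12 of 14 members and 80 of 579 others lay in an intron of the GENCODE host. The 2 nested shares thus mix intronic loci with loci nested in other ways. These shares are given as descriptions, since the members also differed in their starting level, with a median DMSO mean of 46.5 against 1420.

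**Figure D2:**
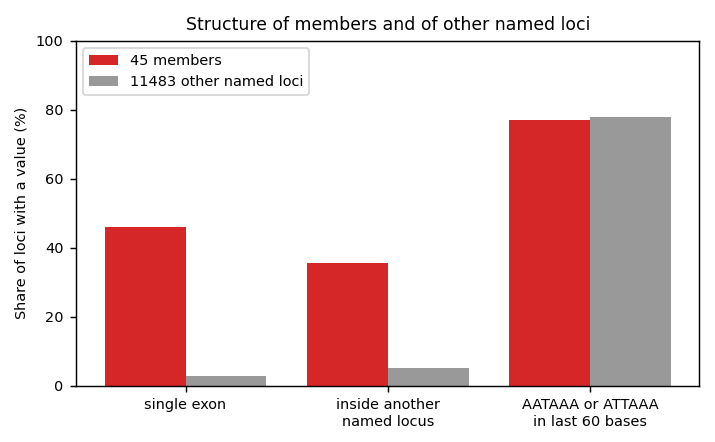
Share of loci (%) with a single exon, inside another named locus, or with AATAAA or ATTAAA in the last 60 bases, for the 45 members (red) and the 11483 other named loci with a THZ531 mean of at least 100 (grey), each over the loci with a value. The first 2 shares are 45.9% and 35.6% for the members against 2.86% and 5.2%, while the last pair is close (76.9% and 77.9%).

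Single-exon loci outside the members had a median ratio near 1 but reached a ratio of 2 more often than loci with several exons. Among named loci that were not members, those with 1 exon outside other loci had a median ratio of 1.14, and 44 of 255 (17.3%) reached 2. Single-exon loci inside another locus also had a median of 1.14, and 7.25% of the 69 reached 2. For loci with several exons the shares were 3.38% outside and 3.16% inside other loci. The comparison loci, here and above, include the ZNF, LINC and histone symbols that the rule left out. Of those symbols 7 passed both thresholds, and the excluded symbols were not counted apart.

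By coordinates, 14 of the 16 nested members lay wholly inside 1 intron of the GENCODE canonical transcript of the host. Of these, 11 were on the strand of the host, LRRC4 was on the strand opposite to SND1, and the strands of LOC100335030 and RPS14P3 were unknown. The share on the host strand was 11 of 12 (91.7%) for members with a strand, against 25 of 80 (31.2%) for other intronic named loci. The median ratio of these other loci was 1.2 on the host strand and 0.965 on the opposite strand.

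The host introns were between 6867 and 89479 bases long, with a median of 27799.5. The member lay in the longest intron of the host in 8 cases and in intron 1 in 5 cases. Among the 12 stranded members, 6 (50%) were in the longest intron, close to the 52.5% of the other intronic loci. Positions were taken from the loci of the file. The wide RNF138P1 locus began 29 bases after the 5′ splice site of intron 1 of PLPP1. The GENCODE pseudogene (chr5:55530156-55530701, minus strand) lies further into that intron. FBXW4P1 began 1226 bases into intron 4 of BCR, and ALMS1-IT1 began 1807 bases into intron 9 of ALMS1. HUS1B, by contrast, began 35918 bases into intron 1 of EXOC2.

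**Figure D3:**
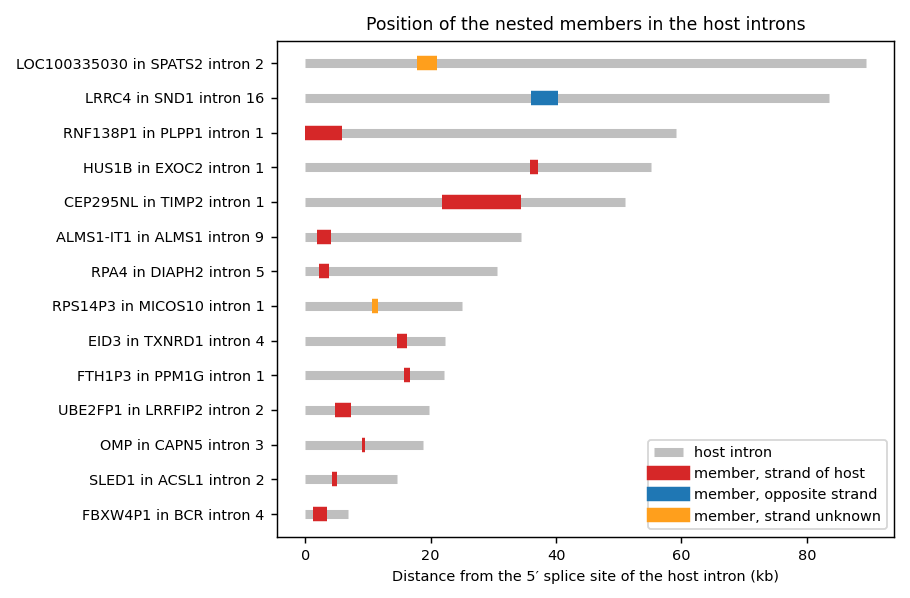
Host introns (grey bars, length in kb from the 5′ splice site) and the 14 members inside them, with the strand of the host in red, the opposite strand in blue and an unknown strand in orange. A member is drawn as its locus in the file, at least 0.4 kb wide, and the introns run from 6867 to 89479 bases.

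Whether the host counts moved with the members could be tested, because hosts were not used by the rule. Values were tested with limma on log2(value + 1) over all 17568 expressed loci, and the call asked for a fold change of 1.5 or more with p (unadjusted) up to 0.05. By this call 39.5% of the expressed loci changed (15.7% higher, 23.9% lower). Of the 14 hosts with the member in an intron, 2 were called (14.3%), 1 in each direction, and the log2 fold changes lay between -0.88 and 0.64 with a median of 0.13. Including the wider loci named below, 3 of 16 hosts tested were called (2 higher, 1 lower), against 4 (0 higher, 4 lower) with the libraries scaled to the same total and 5 (0 higher, 5 lower) when scaled to RPL34.

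ACSL1, the acyl-CoA synthetase that hosts SLED1, rose from 2051 ± 92.7 in DMSO to 3198 ± 153 in THZ531 (SD, n = 3; log2 fold change 0.64, SE 0.053, adjusted p = 2.56e-08). ALMS1, a centrosomal gene, fell in the libraries where ALMS1-IT1 was higher, with 865 ± 44.1 in DMSO and 470.1 ± 51.6 in THZ531 (log2 fold change -0.88, SE 0.093, adjusted p = 3.77e-07). The other 12 stayed under the fold threshold. CAPN5, the host of OMP, had 1569.8 ± 120.1 in DMSO and 1169 ± 69.1 in THZ531 (log2 fold change -0.42, SE 0.07, adjusted p = 5.09e-05), while TXNRD1, the host of EID3, had 26122 ± 801 in DMSO and 34889 ± 956 in THZ531 (log2 fold change 0.42, SE 0.035, adjusted p = 2.47e-08). These 2 differences were larger than the replicate spread and opposite in sign, except when scaled to RPL34, where both were below 0 (-0.92 for CAPN5 and -0.08 for TXNRD1).

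TIMP2, around CEP295NL, had 35077 ± 619 in DMSO and 33274 ± 241 in THZ531 (log2 fold change -0.08, SE 0.031, adjusted p = 0.0396). LRRFIP2, around UBE2FP1, had 7418 ± 328 in DMSO and 5747 ± 394 in THZ531 (log2 fold change -0.37, SE 0.051, adjusted p = 7.54e-06). PLPP1, around RNF138P1, had 105 ± 3.31 in DMSO and 116 ± 17.6 in THZ531 (log2 fold change 0.13, SE 0.19, adjusted p = 0.553). Of the remaining hosts, BCR (0.27), SND1 (0.19), MICOS10 (0.18), DIAPH2 (0.14) and PPM1G (0.12) had log2 fold changes above 0, and EXOC2 (-0.38) and SPATS2 (-0.26) below 0.

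**Figure D4:**
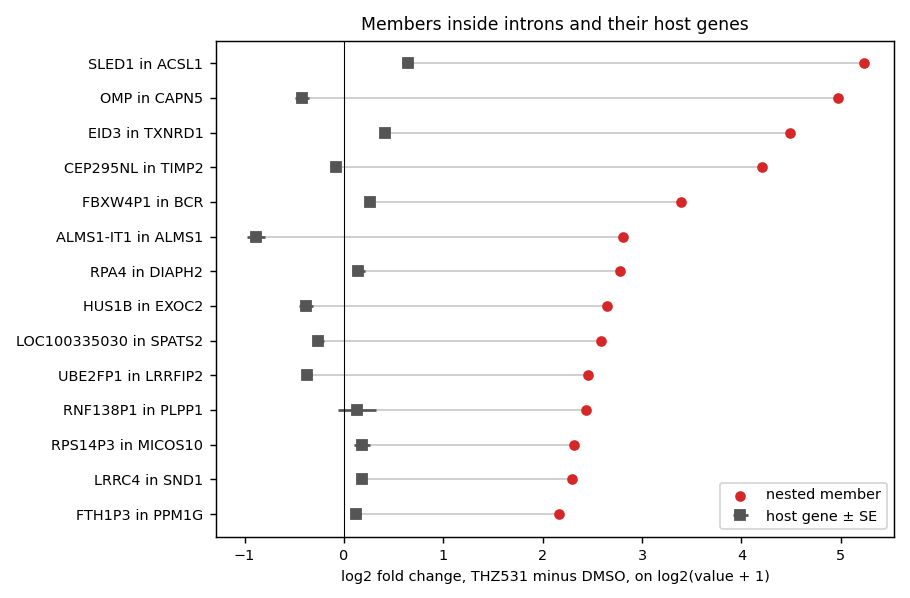
The log2 fold change (THZ531 minus DMSO, on log2(value + 1)) of the 14 intronic members (red circles) and of their host genes (grey squares, ± SE, 3 libraries a group). The hosts lie between -0.88 and 0.64. The members lie to the right of them by the rule that chose them.

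In 2 further cases the locus of the file was far wider than the GENCODE gene. FAM83E lies inside the file's locus of FTL, which encodes the ferritin light chain, but outside the GENCODE gene. That locus had 11524 ± 578 in DMSO and 17391 ± 279 in THZ531 (log2 fold change 0.59, SE 0.039, adjusted p = 1.52e-09), a fold change of 1.51 at the edge of the call, which was lost without DMSO replicate 1 (log2 fold change 0.57), DMSO replicate 2 (0.58) or THZ531 replicate 2 (0.58). MIR762HG lies inside the file's loci of TRIM72, which was under the minimum for expression, and of MAPK3, which had 1510.0 ± 41.5 in DMSO and 1490.0 ± 83.3 in THZ531 and was not called. How the authors' counting handled strand and overlap is not given in the sources used here, so reads of overlapping loci cannot be separated.

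The nearest expressed named loci within 50 kb on each side of the members were tested as well. There were 40 of them, and 22 were called (55%), 6 higher and 16 lower, with a median log2 fold change of -0.50. Among all 15278 expressed named loci 37% were called (13.3% higher, 23.7% lower), and the median over all expressed loci was -0.01. Scaled to the same total the split was 3 higher and 20 lower, and scaled to RPL34 it was 2 and 25. No test of the difference from all loci was run.

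EPOP, a Polycomb-associated gene 26186 bases from LOC105371763, rose to 2.57-fold, with 2756 ± 104 in DMSO and 7083 ± 175 in THZ531 (log2 fold change 1.36, SE 0.044, adjusted p = 6.06e-13), while MLLT6 on the other side of the same member fell (log2 fold change -1.02, SE 0.072, adjusted p = 3.8e-09). EXOSC2, an exosome subunit gene 10762 bases from PRDM12, fell from 2901 ± 131 in DMSO to 1177 ± 132 in THZ531 (log2 fold change -1.31, SE 0.071, adjusted p = 1.86e-10). Both neighbours of MAFA fell, RHPN1 (log2 fold change -0.73, SE 0.074, adjusted p = 2.28e-07) and ZC3H3 (log2 fold change -0.81, SE 0.059, adjusted p = 4.6e-09). TOR4A next to NRARP also fell (log2 fold change -0.74, SE 0.061, adjusted p = 2.06e-08).

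Near LRRC4, the intronic transcript SND1-IT1 had 0.794, 0 and 0 in DMSO and 17.6, 40.9 and 20.5 in THZ531. It reached the minimum for expression of 10 only in THZ531, so its place among the 6 higher neighbours was fixed by that minimum, and the other 5 did not depend on it. CHASERR, the noncoding RNA upstream of CHD2, had 581 ± 33.9 in DMSO and 809 ± 45.8 in THZ531 (log2 fold change 0.48, SE 0.082, adjusted p = 7.61e-05) and was not called, with a fold change of 1.39. RGMA, downstream of CHD2, fell on low counts (log2 fold change -1.65, SE 0.70, adjusted p = 0.0457), and its call was lost without THZ531 replicate 1 (log2 fold change -1.59) or THZ531 replicate 2 (-1.15). The call of SBF2 near ADM was lost without THZ531 replicate 1 (log2 fold change -0.52), and that of PRX near SERTAD1 without DMSO replicate 1 (0.55).

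**Figure D5:**
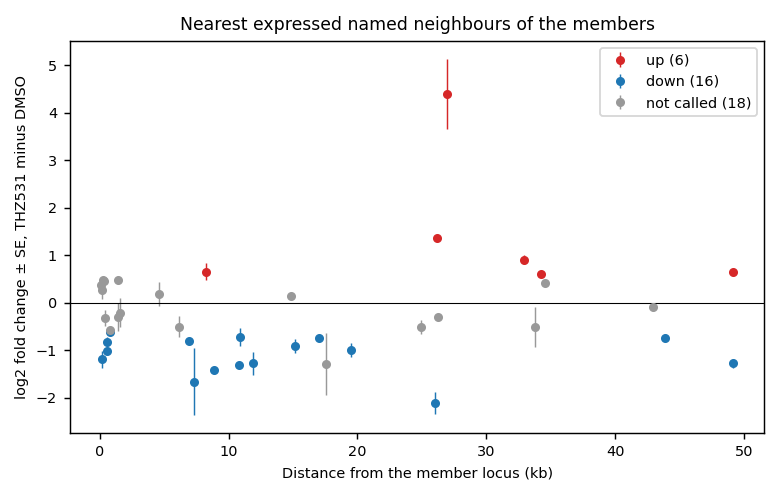
The log2 fold change (± SE, THZ531 minus DMSO, 3 libraries a group) of the 40 nearest expressed named neighbours against their distance from the member (kb), coloured by call (6 up, 16 down, 18 not called). The point above 4 is SND1-IT1, whose DMSO mean was 0.265.

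Loci that overlapped members moved in both directions. ARHGEF17, which overlaps LOC100287837, fell from 2331 ± 154 in DMSO to 652 ± 41.5 in THZ531 (log2 fold change -1.84, SE 0.07, adjusted p = 3.58e-12). NFXL1, which overlaps LOC101927157, rose to 2.02-fold (log2 fold change 1.02, SE 0.044, adjusted p = 1.23e-11), and ATP2B1, a calcium pump gene that overlaps ATP2B1-AS1, rose to 1.71-fold (log2 fold change 0.78, SE 0.064, adjusted p = 2.36e-08). The GRIN2B locus of the file is 1.58 times as long as the GENCODE gene and covers EMP1, which had 17924 ± 485 in DMSO and 17456 ± 335 in THZ531 (log2 fold change -0.04, SE 0.034, adjusted p = 0.341), and it overlaps FAM234B, which rose (log2 fold change 1.26, SE 0.16, adjusted p = 2.59e-06). The part of these overlaps in the member values was not tested. Of 6 unnamed loci inside members, 1 was expressed. It spans 67071 bases within CHD2 and had 0, 3.71 and 1.60 in DMSO and 20.2, 31.8 and 13.7 in THZ531. It reached the minimum for expression of 10 only in THZ531, so its direction was fixed by that minimum and no test is given.

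Genes related to the members by pathway or family were read from lists written by hand. Over these lists 113 of 314 tested genes that were not members were called (36%), 76 higher and 37 lower, against 39.5% of all expressed loci (15.7% higher, 23.9% lower), and the counts of each list below stand against these shares. Of the 76, 9 were under 10 in every DMSO library, and of the 37, MFNG and CPEB1 were under 10 in every THZ531 library. The direction of these genes was fixed by the minimum for expression. Among the 76, SNORD3B (15.9, 3.71 and 0 in DMSO) and MIR181A1HG (11.9, 9.28 and 3.19 in DMSO) also passed that minimum only through THZ531. The split was 55 higher and 54 lower with the libraries scaled to the same total, and 29 and 85 when scaled to RPL34, so the directions given are relative to the normalisation of the authors. In the Notch pathway, where NRARP is a feedback inhibitor, 7 of 37 tested genes rose and 5 were called lower. The transcriptional regulator HES6 rose from 288 ± 32.0 in DMSO to 892 ± 48.8 in THZ531 (log2 fold change 1.63, SE 0.1, adjusted p = 6.54e-10), and the ligand gene JAG1 rose from 3175 ± 83.3 in DMSO to 8091 ± 209 in THZ531 (log2 fold change 1.35, SE 0.041, adjusted p = 3.22e-13). HEY1, a direct Notch target, and the ligand gene JAG2 also rose, to 2.4-fold and 1.87-fold. The HEY family went both ways. HEYL fell (log2 fold change -0.76, SE 0.11, adjusted p = 1.7e-05), and HEY2 was not called (log2 fold change -1.13, SE 0.55, adjusted p = 0.0791). Beside MFNG, DTX2, MAML2 and NUMBL fell, with DTX2, a ubiquitin ligase of the pathway, at 1425 ± 112 in DMSO and 488 ± 39.8 in THZ531 (log2 fold change -1.55, SE 0.083, adjusted p = 1.58e-10). Over the list, the median of the log2 fold changes was -0.06.

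The list of cell cycle brakes, to which CDKN1C belongs, also held relatives of the E2F coactivator SERTAD1, which were not counted apart. Of its 19 tested genes 6 rose and RB1 fell (log2 fold change -0.86, SE 0.065, adjusted p = 7.86e-09). The 6 include SERTAD2 (log2 fold change 0.90, SE 0.045, adjusted p = 6.25e-11), so not all of them are brakes. CDKN2D, an inhibitor of CDK4 and CDK6, rose from 260.2 ± 29.2 in DMSO to 753 ± 54.7 in THZ531 (log2 fold change 1.53, SE 0.11, adjusted p = 3.17e-09), and CDKN1A, which encodes p21, rose to 1.94-fold (log2 fold change 0.95, SE 0.091, adjusted p = 1.29e-07). BTG1 (in a joint locus with LINC01619) and GADD45B rose to 2.17-fold and 1.96-fold. For mRNA decay and tailing, the setting of TENT5C and MEX3B, 9 of 39 rose and 6 were called lower. TNRC6B, a partner of Argonaute, rose to 3.66-fold (log2 fold change 1.87, SE 0.059, adjusted p = 4.33e-13), and its paralog TNRC6C fell (log2 fold change -1.53, SE 0.14, adjusted p = 8.08e-08). TENT5A, a paralog of TENT5C, rose (log2 fold change 1.14, SE 0.18, adjusted p = 4.37e-05), as did CPEB2 and CPEB3, while PAN2 and AGO4 fell and CPEB1 was called lower.

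Paralogs of RPA4, HUS1B and EID3 were read from further lists. In the list of replication protein A and the checkpoint clamp, RFC3 rose and 3 of 12 fell. These were RPA2 (log2 fold change -0.87, SE 0.07, adjusted p = 1.9e-08), the paralog of RPA4, as well as RAD9A (log2 fold change -1.22, SE 0.13, adjusted p = 4.93e-07) and RFC4. HUS1, the paralog of HUS1B, had 665 ± 40.1 in DMSO and 649 ± 35.0 in THZ531 (SD, n = 3; log2 fold change -0.04, SE 0.083, limma adjusted p = 0.718) and was not called. In the EID and VPS13 families, to which EID3 and VPS13B belong, limma, edgeR and DESeq2 each called 0 of the 6 tested genes. Under limma 4 of them had an unadjusted p under 0.05, with log2 fold changes of the 6 between -0.40 and 0.22. No test of difference between these lists and other genes was run.

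Of the CHD remodelers, CHD6 (log2 fold change 1.70, SE 0.086, adjusted p = 7.14e-11) and CHD7 (log2 fold change 0.75, SE 0.039, adjusted p = 1.1e-10) rose and the other 7 tested were not called. Among vasoactive peptides and their receptors, EDN1, the endothelin precursor, rose to 3.64-fold (log2 fold change 1.86, SE 0.15, adjusted p = 1.21e-08), ADM5 and CALCB rose, and ADM2 (log2 fold change -1.49, SE 0.16, adjusted p = 3.68e-07) and the endothelin receptor EDNRA fell, of 10 tested. Of genes linked to SGK1 and glucocorticoids 5 of 12 rose, with KLF9 (log2 fold change 1.47, SE 0.19, adjusted p = 2.96e-06), PER1, TSC22D2 and DUSP1 changing most. The other 7 tested were not called. They include FKBP5 (log2 fold change 0.045, SE 0.057, adjusted p = 0.494) and TSC22D3 (log2 fold change -0.05, SE 0.076, adjusted p = 0.577). Among MAF, PRDM and IRF factors 7 of 21 rose and 6 fell. IRF7, PRDM1, PRDM2 and MAFF rose, to 3.97-fold for IRF7 (log2 fold change 1.99, SE 0.13, adjusted p = 2.19e-09), and IRF2 (log2 fold change -1.78, SE 0.10, adjusted p = 4.37e-10), IRF1 and IRF9 fell.

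Of 103 small structured RNAs tested beside SNORD3A and SNORA50C, 26 were called higher and 8 fell, against 15.7% and 23.9% of all expressed loci. These counts too come from a polyA library and are not a measure of the mature RNAs. The U3 copy SNORD3D had 3.18, 1.86 and 4.79 in DMSO and 76.8, 58.0 and 79.6 in THZ531. SNORD3B had 15.9, 3.71 and 0 in DMSO and 79.3, 68.2 and 67.1 in THZ531. The copies of U3 share sequence, so their reads may be divided among SNORD3A, SNORD3B and SNORD3D. The U1 variant RNVU1-7 had 0, 0 and 0 in DMSO and 84.4, 76.2 and 106 in THZ531. Of the 26, 7 were under 10 in every DMSO library and entered the test only through THZ531, so their direction was fixed. These were RNVU1-7, SNORD3D, RNVU1-19, RNVU1-4 (in a joint locus with RNVU1-20), SNORA2B, SNORA71D and SNORD13, listed after their values were seen. The other 19 were at 10 or more in some DMSO library. SNORD3B is among these 19 but also reached the minimum only through its THZ531 libraries, so no rise is read from its call. SNORD88B, SNORA59B, SNORD44 and SNORD52 fell. Of 46 loci of microRNAs and their host genes tested, 10 were called higher and 6 fell. The MIR23AHG locus rose. MIR4738 and MIR589, also among the 10, reached 10 reads only in THZ531. MIR181A1HG, with 11.9, 9.28 and 3.19 in DMSO and 51.6, 27.3 and 51.2 in THZ531, likewise passed the minimum only through THZ531. Among the 6 that fell were MIR3150BHG, MIR210HG, MIR9-3HG and MIR503HG. On these low counts the calls of SNORA59B (log2 fold change -1.12 to -1.25), MIR9-3HG (-1.01 to -1.26) and MIR3150BHG (-1.26) were lost when 1 library was left out, namely DMSO replicate 1 or 3 or THZ531 replicate 3 for SNORA59B, DMSO replicate 2 or THZ531 replicate 2 or 3 for MIR9-3HG, and THZ531 replicate 2 for MIR3150BHG.

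The promoters of 20 members were in the RefSeq table of GRCh38.p14, from 250 bases before to 50 after the start. TATAAA, searched on both strands, was found in 3 of them (15%), those of NRARP, ADM and SGK1, against 11.5% of all 35116 promoters. In ADM it began 27 bases and in NRARP 41 bases before the start. In SGK1 the match was on the opposite strand, 96 bases before the start. CCAAT was found in 30% against 34.6%, and GGGCGG in 14 of 20 (70%) against 45%. CACGTG, TGACGTCA and TGANTCA were found in 0 of 20, against 7.26%, 1.85% and 7.71%. The member promoters had a median GC content of 67.7%, against 58.7% over all promoters. The 35116 promoters were taken whether or not their genes were expressed in these cells. A comparison with promoters of expressed loci was not run, so these shares are not traits particular to the members.

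The libraries held 53054048 to 70986130 reads on loci. With so few reads at many members in DMSO, the median coefficient of variation of the members was 19.6% in DMSO and 7.56% in THZ531, against 5.23% and 4.42% at the other named loci. THZ531 replicate 1 was the highest of its group in 17 of 45 members (37.8%), close to 36.4% at the other loci. Reads on unnamed loci were 9.88% to 11.5% of a library. All 14 markers of ovarian epithelium were expressed, with 1 called higher (CLDN4) and 1 lower (PAX8, log2 fold change -3.18, SE 0.061, adjusted p = 4.6e-15). The summed counts of the 8 leukocyte markers were 176 to 219 in DMSO and 156 to 181 in THZ531, with 3 markers at 0 in every library. Those of the 8 fibroblast markers were 1815 to 2146 in DMSO and 3366 to 3756 in THZ531, a sum carried by COL1A1 and COL3A1, which were called higher. COL1A2, PDGFRA and THY1 were not called, and DCN (1.59 in DMSO and 0 in THZ531), LUM (1.15 and 0) and PDGFRB (means 11.5 and 9.29) did not reach 10 in 3 libraries. The call of COL3A1 was lost without DMSO replicate 1 or 2 or THZ531 replicate 1 or 2 (log2 fold change 0.47 to 0.58), and the part of these markers in the member values was not tested.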

How the data were processed

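OVCAR3 RNA was sequenced from polyA libraries made with a strand-specific kit. Per the methods and the labels, the authors mapped reads to hg38 with STAR (2.7.5a in the submitters' processing notes), counted them on FAST DB loci with featureCounts and normalised them with DESeq2. The deposited values are thus a signal on a scaled read count, in which each library was divided by its own size factor. Whole reads were recovered for 100% of the values within 0.02 reads, 53054048 to 70986130 per library.

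Members followed the rule stated at the opening. The members and lists were chosen with earlier results of these data known. The 17568 loci that reached 10 in 3 or more libraries were tested on log2(value + 1), which understates fold changes of low loci, with limma 3.58.1 with trend in R 4.3.3, without covariates, and adjusted p-values are Benjamini-Hochberg values over all of them. The call used a fold change of 1.5 and p of 0.05, the thresholds of the study. On the recovered reads edgeR 4.0.16 called 6863 loci and DESeq2 1.42.0 called 6788, against 6948 with limma. Gene models came from GENCODE v44 (37 of 45 members matched), strands for 39 members from it or RefSeq. Per-library values are printed for the 5 largest ratios and the 5 highest THZ531 means of each class. Hosts are given by name and edges for 3 loci a side. Of each list up to 4 called genes per direction are given, beside SERTAD2, HEYL and loci under the minimum for expression in DMSO. Alternatives were other scalings, pseudocounts, minimums, thresholds and tests, and leaving out each library. The values of 1 member and 1 list gene are not reported here.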

Additional observations from a re-analysis of the deposited data

How the results depend on the processing

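The scaling and the thresholds set how many loci the rule selects. Scaled to RPL34 it selected 22 loci, all of them among the 45, and scaled to the same total 33. In these scalings, in this order, the mean log2 scaling factor of the THZ531 libraries minus that of the DMSO libraries was -0.49 and -0.24. With a THZ531 mean of at least 50 there were 70 loci, with a ratio of at least 3 there were 94 and with a ratio of at least 6 there were 19. Leaving out 1 library gave 43 to 48. The count of hosts called was 5 (0 higher, 5 lower) scaled to RPL34 and 4 (0 higher, 4 lower) scaled to the same total, against 3 (2 higher, 1 lower), and 0 at a fold change of 2. It was 2 to 3 without 1 library. The count of neighbours called was 10 at a fold change of 2 and 8 of 19 within 10 kb, against 22 of 40, and the split was 2 higher and 25 lower scaled to RPL34. Genes of the lists called were 61 at a fold change of 2, against 113. The list calls split into 55 higher and 54 lower scaled to the same total and 29 higher and 85 lower scaled to RPL34, against 76 and 37, so directions in the lists hold relative to the normalisation of the authors. Without a minimum for expression 169 of 796 list genes were called, and with a minimum of 50, 83 of 205. The unnamed locus in CHD2 could not be tested at a minimum of 50 or without any 1 THZ531 library. Over 102 named genes, 1800 of 1894 alternative values kept the side of the threshold, 87 lost it, 7 gained it and 0 changed sign with a call. The replicate numbers did not pair the libraries (correlations of same-numbered deviations 0.0017, 0.0186 and -0.0393), and with the replicate block 3 hosts, 23 neighbours, 110 list genes and the 1 unnamed locus, which reached the minimum only in THZ531, were called.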
